A study of Mus musculus with 4 samples.

Results

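The fibroblast growth factor (FGF) ligands described here are 9 genes, Fgf1, Fgf2, Fgf5, Fgf7, Fgf9, Fgf10, Fgf13, Fgf18 and Fgf21, measured in mouse embryonic fibroblasts (MEFs). They were found by gene name among the gene probes of the arrays, which gave 14 of 41174 probes. The arrays name 12 other genes of the family, read by 20 probes. The members were chosen by their measured log2 ratios in the comparisons below, Fgf5 and Fgf18 for being lower and the others with those ratios known, so every value of a member in these comparisons is a description and carries no test.

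MEFs are connective-tissue cells grown from embryos. Per the labels, CycG1-/- MEFs (G1KO, lacking cyclin G1) were compared with CycG1+/+ MEFs, and CycG2-/- MEFs (G2KO, lacking cyclin G2) with CycG2+/+ MEFs, each wild type (WT) being labelled for its own comparison. Each comparison had 2 two-colour arrays of 1 knockout RNA and 1 WT RNA, with the dyes Cy5 and Cy3 exchanged on the second array, so there was 1 replicate per genotype and no test between genotypes was possible. Each ± value below is a technical SD, taken over the 2 arrays of 1 pair. The strain entry was C57BL/6J for all 4 RNAs, although the source name of the G2KO pair was written C57BL/7J. All cells were in logarithmic growth in medium with 10% serum, and no age of embryo or number of cultures was given in the labels. Per the study's methods, the Ccng1 allele had a PGK-neo cassette in place of every exon that holds the open reading frame, so the G1KO cells also carried that cassette.

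FGFs bind receptor tyrosine kinases on the cell surface together with heparan sulphate, and signal through the adaptor FRS2 to a RAS-dependent kinase cascade, whose targets include feedback inhibitors of the Sprouty and DUSP families. Fgf7 and Fgf10 are typical mesenchymal ligands that act on the epithelial form of FGFR2. Fgf5 is known for ending the growth phase of the hair cycle and Fgf18 for its role in bone, cartilage and lung. Fgf9 is made by mesothelium and epithelium, Fgf1 and Fgf2 lack a classical secretion signal, Fgf21 is a hormone-like member that needs a Klotho co-receptor, and Fgf13 is an intracellular member that is not secreted and does not act through FGF receptors in the usual way.

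The labels were checked first. Ccng1 was lower in G1KO at both of its probes, with log2 ratios of knockout over WT of -6.67 ± 0.13 and -4.96 ± 0.08 (SD, 2 arrays). In the G2KO-labelled RNA the same probes were called higher, at 2.67 ± 0.03 and 2.49 ± 0.04. Ccng2 was not lower in the G2KO-labelled RNA, where its only probe had a log2 ratio of 0.09 ± 0.27, with 0.28 and -0.10 on the arrays. Whether that probe lies in the deleted part of Ccng2 was not given in the sources used here, so these arrays gave no check of that label. Per the study's methods, a piece of each embryo was genotyped when MEFs were made. Genes of the sex chromosomes also moved with genotype in both pairs. Xist, which is expressed from the inactive X chromosome, had log2 ratios of 7.54 ± 0.43 and 7.24 ± 0.46, and the Y-linked gene Eif2s3y was lower by at least 82.3-fold in G1KO and by at least 51.2-fold in the other knockout RNA, so genotype and these sex-linked differences cannot be told apart. All 12 fibroblast markers examined were well above background in all 4 RNAs. In bulk RNA, fewer cells of a type and less RNA per cell cannot be told apart.

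The starts of 3 members are shown because these carry the largest ratios below, Fgf5 and Fgf18 in both comparisons and Fgf7 in the G2KO-labelled RNA. Each is the run of 250 bases before the annotated start, from RefSeq on GRCm38.p6, written 5′ to 3′ along the gene's strand. Capitals mark every match, on either strand, to the TATA box (TATAAA), the CCAAT box (spelt as named) or the GC box (GGGCGG), and none of these matches overlapped. Of the 9 members, 8 were matched in the promoter table by symbol.
Fgf5, chr5:98253934-98254183, plus strand: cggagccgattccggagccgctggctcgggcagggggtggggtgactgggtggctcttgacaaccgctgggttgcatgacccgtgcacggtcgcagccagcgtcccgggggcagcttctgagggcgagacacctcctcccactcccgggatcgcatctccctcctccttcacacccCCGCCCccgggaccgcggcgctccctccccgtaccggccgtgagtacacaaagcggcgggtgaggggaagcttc
Fgf18, chr11:33147401-33147650, minus strand: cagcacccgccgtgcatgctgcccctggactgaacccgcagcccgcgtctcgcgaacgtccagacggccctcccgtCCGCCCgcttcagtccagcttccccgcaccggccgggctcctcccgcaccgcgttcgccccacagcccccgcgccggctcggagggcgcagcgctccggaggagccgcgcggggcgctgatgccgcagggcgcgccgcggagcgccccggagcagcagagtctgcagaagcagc
Fgf7, chr2:126034408-126034657, plus strand: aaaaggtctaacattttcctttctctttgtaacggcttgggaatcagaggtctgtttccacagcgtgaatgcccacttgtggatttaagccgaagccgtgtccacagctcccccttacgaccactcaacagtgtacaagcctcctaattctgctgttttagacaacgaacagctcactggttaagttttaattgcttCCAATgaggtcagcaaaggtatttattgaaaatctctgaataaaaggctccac
Fgf5 and Fgf18 each held 1 GC box on the other strand, beginning 74 and 174 bases before the start. Fgf7 held 1 CCAAT box on its own strand, 53 bases before the start. Of 32851 mouse promoter windows of the same length, 12.4% held the TATA box letters, 33.8% the CCAAT box letters and 32.7% the GC box letters. These matches are a description of the letters and bear on no value below.

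In G1KO, 3 of the 14 probes were called, all of them lower, and they read Fgf18, Fgf5 and Fgf13. A call required a difference of 2-fold or more, a log2 ratio of 1 in size, with the same sign on both arrays of the pair. The filter on dim probes kept those well above background on both arrays in at least 1 genotype, which left 11 of the 14 probes and 8 of the 9 genes. Among all 25541 probes kept in the G1KO comparison, 5.79% were called, 1.99% higher and 3.8% lower. In the G2KO-labelled RNA, 4 probes were called, again all lower, and they read Fgf7, Fgf5, Fgf18 and Fgf10. There the filter kept 9 of the 14 probes and again 8 genes, and 6.37% of 25430 probes were called, 2.31% higher and 4.06% lower. Since the choice of members used these ratios, nothing is read from their share of calls against that of all probes. The value just inside the threshold was Fgf10 in the G2KO-labelled RNA, with -2.55 and -2.43 on the arrays. The value just outside it was Fgf7 in G1KO, with 0.89 and 1.02.

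**Figure D1:**
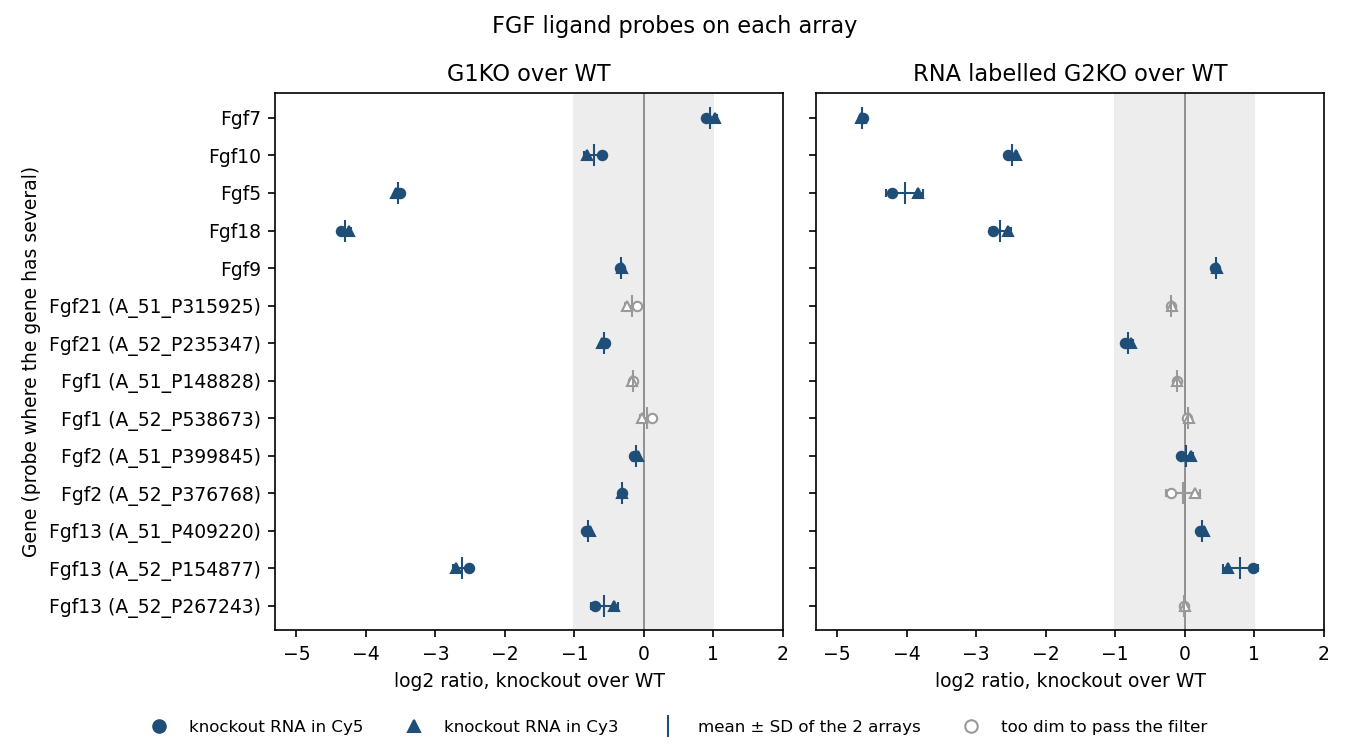
Log2 ratio of knockout over WT (x axis) of each of the 14 FGF ligand probes (y axis) in both comparisons, with the array that held knockout RNA in Cy5 as a circle, the swapped array as a triangle, and the mean ± SD of the 2 arrays as a bar. Open grey symbols are probes too dim to pass the filter, and the grey band spans 2-fold in either direction: 3 probes lie left of it in G1KO and 4 in the G2KO-labelled RNA, and none lies right of it on both arrays.

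Fgf5 was read by 1 probe, at positions 98517263 to 98517322 of chromosome 5 on the plus strand. Positions of probes are those of the array design, on mouse build mm8 (NCBI 36), and probes were not placed within exons here. Its raw signal in WT of the G1KO pair was 5137 in Cy3 and 12365 in Cy5, against 430 and 1148 in G1KO. In WT of the G2KO pair it was 842 and 2067, against 52.7 and 59.3 in the G2KO-labelled RNA, where local background was 26 and 34. Cy5 gave brighter readings than Cy3 of the same RNA, so signals are set side by side within a dye. Fgf5 was thus bright in both WT RNAs, dimmer in G1KO and close to background in the G2KO-labelled RNA, with no overlap within either pair. The log2 ratio in G1KO was -3.51 and -3.57 on the arrays, with a mean of -3.54 ± 0.04 (11.6-fold lower). In the G2KO-labelled RNA it was -4.22 and -3.84, with a mean of -4.03 ± 0.27 (16.3-fold lower).

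Fgf18 was read by 1 probe, at 33017441 to 33017500 of chromosome 11 on the minus strand. Its raw signal was 6279 in Cy3 and 13621 in Cy5 in WT of the G1KO pair, and 296 and 767 in G1KO. In the other pair it was 1048 and 2402 in WT, and 181 and 304 in the G2KO-labelled RNA. Fgf18 remained well above background in all 4 RNAs. The log2 ratio in G1KO was -4.36 and -4.24, with a mean of -4.30 ± 0.08 (19.7-fold lower), and it was the largest among the members in that comparison. Fgf18 was also called in the G2KO-labelled RNA, with -2.76 and -2.55 and a mean of -2.65 ± 0.15 (6.29-fold lower). Fgf5 and Fgf18 were the members called in both comparisons, and over all probes 132 of the 24150 kept in both were called lower in both.

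Fgf7 was read at 125780852 to 125780911 of chromosome 2 on the plus strand. Its raw signal was 733 in Cy3 and 1655 in Cy5 in WT of the G1KO pair, and 1491 and 3518 in G1KO. In WT of the G2KO pair it was 3571 and 8101, against 131 and 305 in the G2KO-labelled RNA. The knockout RNA was thus the brighter in the G1KO pair and the dimmer in the G2KO pair. The log2 ratio in the G2KO-labelled RNA was -4.63 and -4.66, with a mean of -4.65 ± 0.02 (25.0-fold lower). It was the largest among the members in either comparison under the main processing, although Fgf5 passed it under some other settings. In G1KO it was 0.95 ± 0.09 (1.94-fold higher), which was not called.

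Fgf10, the other mesenchymal ligand of this kind, was read by a probe printed in 10 spots, at 119910431 to 119910490 of chromosome 13 on the plus strand. Its raw signal was 409 in Cy3 and 845 in Cy5 in WT of the G2KO pair, and 65.4 and 106 in the G2KO-labelled RNA. The log2 ratio there was -2.49 ± 0.08 (5.62-fold lower). In the other pair the signals were 235 and 544 in WT and 150 and 334 in G1KO, and the log2 ratio was -0.60 and -0.82, with a mean of -0.71 ± 0.16. Fgf10 was thus dimmer in knockout RNA on all 4 arrays, and past 2-fold in the G2KO-labelled RNA.

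Fgf13, the intracellular member, had 3 probes, on the X chromosome (minus strand), which gave ratios of different size. The brightest, at 55409372 to 55409431, had signals of 360 in Cy3 and 1050 in Cy5 in WT of the G1KO pair and 65.1 and 108 in G1KO. Its log2 ratio was -2.51 and -2.71, with a mean of -2.61 ± 0.14 (6.10-fold lower). The other probes, at 55414196 to 55414255 and at 55478671 to 55478730, were not well above background in G1KO on either array, so they passed the filter through WT alone. They gave only bounds, of at least 1.75-fold and at least 1.48-fold lower. Such a bound sets the mean level in WT against the larger of the dim level and the lowest level well above background in that channel, and it is open to dye bias. For both probes the dim level was the larger, so the bound equals the plain ratio. Neither of these probes was called.

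In the G2KO-labelled RNA the brightest Fgf13 probe moved the other way, with signals of 120 in Cy3 and 275 in Cy5 against 73.4 and 128 in its WT. The log2 ratio was 0.98 and 0.63, with a mean of 0.80 ± 0.25, and it was not called. At the probe at 55414196 the ratio was 0.25 ± 0.04, and the probe at 55478671 was not well above background in either genotype. The 3 probes thus shared a direction in G1KO, and in the other comparison both that could be measured were above 0.

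Fgf9, which is known from mesothelium, was read at 57063697 to 57063756 of chromosome 14 and was dim in all 4 RNAs, with raw signals between 41.4 and 87.3. It was well above background in WT alone in the G1KO pair and in knockout RNA alone in the other pair. The bounds were 1.25-fold or more lower in G1KO (log2 ratio -0.33 ± 0.02) and 1.36-fold or more higher in the G2KO-labelled RNA (0.45 ± 0.02), and neither was called.

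Fgf21, the hormone-like member, had 2 probes on the minus strand of chromosome 7. At 45481977 to 45482036 it was lower without a call in both comparisons, at -0.58 ± 0.03 on the log2 scale in G1KO and -0.81 ± 0.06 in the G2KO-labelled RNA. The signals were dim, between 54.3 and 173, and both WT RNAs were brighter than their knockout RNA in each dye. The other probe, whose design positions 45482352 to 45482966 span more than the probe's length, was not well above background on both arrays of any RNA.

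Fgf2, a ligand without a secretion signal, was dim and differed little. Its probe printed in 10 spots, at 37540561 to 37587780 of chromosome 3, gave a log2 ratio of -0.11 ± 0.04 in G1KO and one of 0.02 ± 0.10 in the G2KO-labelled RNA, the latter with a different sign on each array. The other probe, at 37596166 to 37596225, gave -0.31 ± 0.00 in G1KO and was not well above background in either RNA of the other pair. Fgf1 was not well above background at either of its probes, on chromosome 18, in any RNA, so no ratio is given. Of the 9 ligands, Fgf1 was the member with no usable value in either comparison.

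Over the members the median log2 ratio was -0.64 in G1KO and -1.65 in the G2KO-labelled RNA, taking for each of the 8 genes kept its brightest probe. The medians over all probes kept were -0.0023 and -0.0071. Of the 11 member probes kept in G1KO 10 had a ratio below 0, and of the 9 kept in the G2KO-labelled RNA 5 did. Among these probes that of Fgf9, and in G1KO the dimmer Fgf13 probes, passed the filter only through the genotype where they were the brighter. The members were also chosen by these ratios, so the medians and counts describe the measured members and support nothing further.

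The levels of a ligand in the 4 RNAs were also set on 1 scale, as log2 levels of the single channels after normalisation between arrays. Each RNA then has 2 readings per probe, and levels of different probes are not compared. For Fgf5 the level was 12.92 in WT of the G1KO pair, 10.44 in WT of the G2KO pair, 9.38 in G1KO and 6.41 in the G2KO-labelled RNA. For Fgf18 the same order held, with 13.13, 10.74, 8.83 and 8.09. No neighbours in these orders overlapped between their readings.

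The WT RNAs thus differed from each other in both ligands. The level in WT of the G2KO pair was lower than in WT of the G1KO pair by a log2 difference of -2.48 for Fgf5 and -2.39 for Fgf18. For Fgf7 it was higher by 2.41, and the order was WT of the G2KO pair at 12.50, G1KO at 11.05, WT of the G1KO pair at 10.09 and the G2KO-labelled RNA at 7.86. The brightest Fgf13 probe was lower in WT of the G2KO pair by a difference of -2.37, with 9.29 in WT of the G1KO pair, 7.71 in the G2KO-labelled RNA, 6.91 in WT of the G2KO pair and 6.68 in G1KO. No neighbours in these orders overlapped either.

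Of the 11 member probes well above background in at least 1 WT RNA, 5 were 2-fold or more apart between the WT RNAs, and they read Fgf2, Fgf5, Fgf7, Fgf13 and Fgf18. Over all 26033 probes so measured, 12% were. The members were chosen by ratios over these WT levels, so nothing is read from these shares. For Fgf2 this was the dimmer probe, which was not well above background in WT of the G2KO pair. Its probe printed in 10 spots was lower there by a difference of only -0.30. The dimmer Fgf13 probes were lower there by -0.71 and -0.48, within 2-fold. Fgf10 and Fgf21 lay within 2-fold, with differences of 0.75 and 0.44 in favour of WT of the G2KO pair. For Fgf5 the difference between the WT RNAs was smaller than the ratio within either pair, and for Fgf18 it lay below the ratio in G1KO and close to that in the G2KO-labelled RNA (-2.65). For Fgf7 in G1KO it exceeded the ratio of 0.95, and the G1KO level lay between the levels of the WT RNAs. For the brightest Fgf13 probe the difference of -2.37 lay close to the ratio in G1KO (-2.61). It exceeded in size the ratio in the G2KO-labelled RNA (0.80). The G1KO level of that probe, 6.68, lay close to that of WT of the G2KO pair, 6.91. Both WT were labelled C57BL/6J MEFs, and with 1 RNA each the spread between WT cultures could not be estimated. Between the knockout RNAs, the G2KO-labelled RNA was lower than G1KO by a log2 difference of -2.97 for Fgf5, -3.19 for Fgf7, -1.02 for Fgf10 and -0.75 for Fgf18, and higher by 1.04 for Fgf13.

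**Figure D2:**
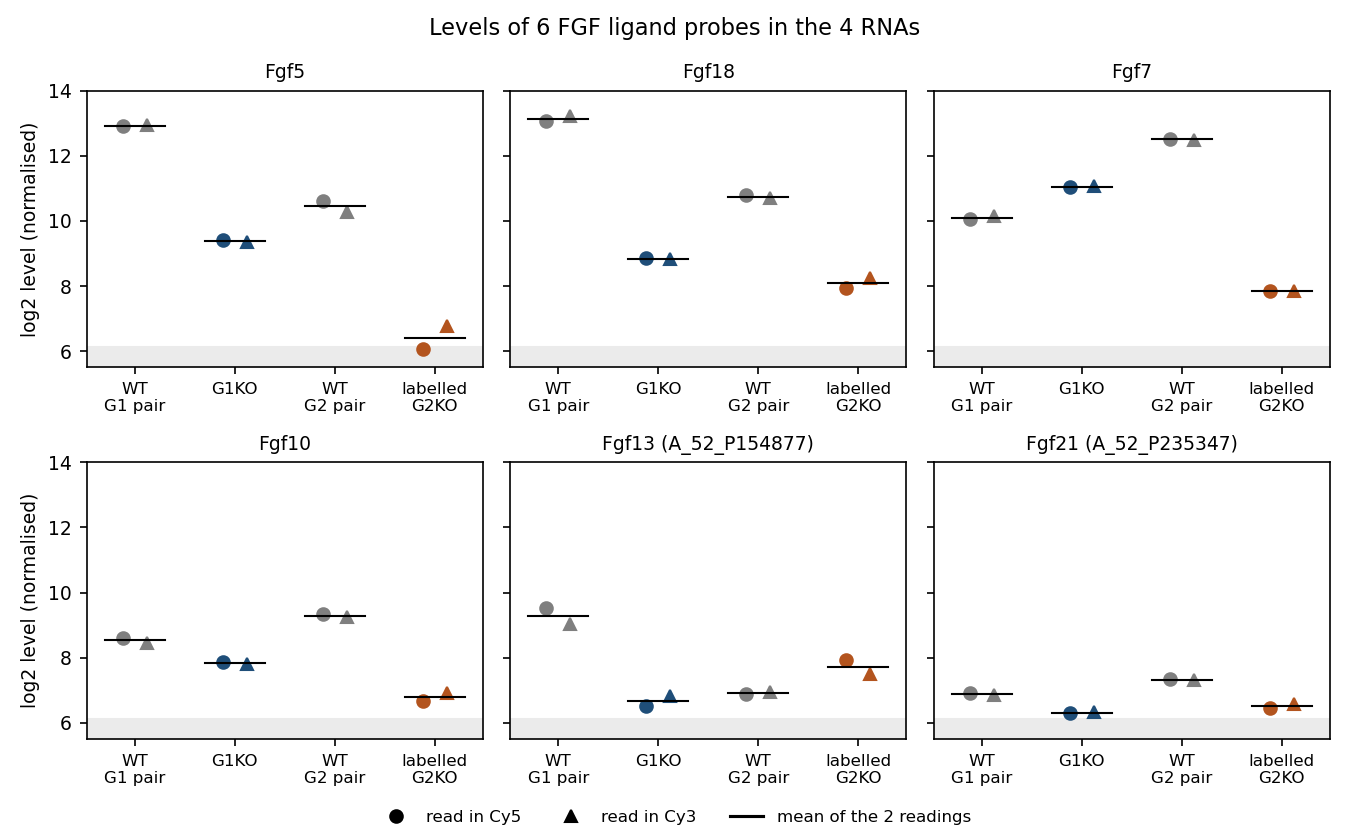
Normalised log2 level (y axis) of 6 FGF ligand probes in the 4 RNAs (x axis), with the reading in Cy5 as a circle, that in Cy3 as a triangle and their mean as a line. The grey band ends at 6.13, the highest of the lowest levels well above background per channel: Fgf5 falls from 12.92 in WT of the G1KO pair to 6.41 in the G2KO-labelled RNA, and Fgf7 is highest in WT of the G2KO pair, at 12.50.

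The probes whose pattern over the 8 readings was most like that of Fgf5 and Fgf18 were ranked among 26728 probes by the root mean square difference of log2 levels, each centred on its own mean. For Fgf5 they were Col4a6, a basement membrane collagen chain, at 0.53, the transcription factor Maf at 0.57, and Nnmt, which methylates nicotinamide, at 0.67. For Fgf18 they were Akr1c14, an aldo-keto reductase that acts on steroids, at 0.33, Pde4dip, a centrosome and Golgi protein, at 0.39, and Dync1i1, a dynein intermediate chain, at 0.49. These 8 readings come from only 4 RNAs, and likeness over them is a description.

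Some cell type markers differed within the same pairs, and some also differed between the WT RNAs. In the G1KO pair 5 of 7 mesothelial markers were called lower in G1KO, among them Wt1, Msln and Upk3b, and 1, Krt19, was called higher. Their summed level, on the linear scale of the normalised channels, ranged from 56501 to 61638 in G1KO and from 218471 to 259026 in its WT. In the G2KO pair the same sum was 3858 to 4202 in the G2KO-labelled RNA and 1783 to 1852 in WT, and 3 of the 7 markers were kept, of which Msln was called higher in the G2KO-labelled RNA at 1.60 ± 0.20 on the log2 scale (3.02-fold) and Krt19 lower at -1.40 ± 0.16 (2.64-fold). Krt18 was not called, and Wt1, Upk1b, Upk3b and Krt8 were not well above background in either RNA of that pair. In the G2KO-labelled RNA and its WT, Msln had mean log2 levels of 11.81 and 10.21. Those of Krt19 were 6.71 and 8.11, and those of Krt18 6.30 and 6.58, so the sum in that pair mostly reads Msln. The mesothelial sum differed more between the WT RNAs, at 218471 to 259026 against 1783 to 1852, than within either pair. It was also higher in G1KO than in both RNAs of the G2KO pair. The part of mesothelial cells in the values of the ligands was not tested.

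In the G2KO-labelled RNA, 7 of 12 fibroblast markers were called lower and none higher, with a median log2 ratio of -1.36, and their summed level was 189046 to 265610 against 568015 to 649098 in WT. That sum mostly reads Col1a2, Col1a1 and Vim, with mean log2 levels of 15.62, 15.69 and 16.40 against 17.93, 17.08 and 16.34 in WT. Vim, Twist1, Lum, Fn1 and Pdgfrb were not called at their brightest probes, with ratios from -0.92 (Fn1) to 0.05 (Vim). A dimmer Fn1 probe was called lower, at -1.50. At their brightest probes Pdgfra had a log2 ratio of -4.63 and Thy1 one of -3.22. A dimmer Pdgfra probe, not well above background in the G2KO-labelled RNA, gave -0.59 and was not called. In G1KO 2 of the 12 were called higher and 1 lower, with a median of -0.01. Of 6 neural and glial markers kept, 4 were called higher in the G2KO-labelled RNA, where the sum was 49497 to 51425 against 2232 to 2511 in WT. En2, Foxa2, Sox2 and Nes made up this rise, and Gfap was not well above background in any RNA. In the G1KO pair 5 of these markers were kept, and Nes was called higher in G1KO at 2.34 ± 0.17. Foxa2 stood at -1.16 ± 0.25 there without a call, and the sum was 8660 to 9339 in G1KO against 13899 to 15111 in WT. That sum mostly reads Foxa2, whose mean log2 level was 12.6 in G1KO and 13.7 in WT. Of the endothelial, epithelial and blood markers kept none was called in either comparison, and Pecam1, Cdh5 and Ptprc were not well above background in any RNA. The part of these cell type differences in the values of Fgf5, Fgf7, Fgf10 and Fgf18 was not tested.

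Most other genes of the FGF family did not pass the filter on dim probes. Of the 12 named, 2 were kept in the G1KO comparison and 3 in the other, and none was called. Fgf8 stood at -0.02 ± 0.07 (log2 ratio) in G1KO and at 0.11 ± 0.06 in the G2KO-labelled RNA, and Fgf11 -0.06 ± 0.08 and -0.05 ± 0.09. Fgf23 was kept in the latter comparison alone, with 0.09 ± 0.11.

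Among 7 receptors and co-receptors, 5 were kept and none was called in either comparison, with medians of 0.54 in G1KO and -0.62 in the G2KO-labelled RNA. Fgfr1, the main mesenchymal receptor, stood at 1.04 ± 0.12 on the log2 scale in G1KO, with 0.96 on one array and thus no call, and its other 3 probes gave 0.65 to 0.97. In the G2KO-labelled RNA it had -0.76 ± 0.15, and the other probes -0.68 to -0.39. Fgfr2, whose epithelial form binds Fgf7 and Fgf10, had 0.86 ± 0.08 and -0.31 ± 0.03 at its brightest probe. Its probe printed in 10 spots gave a smaller 0.32 ± 0.09 in G1KO.

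The ratios of Fgfr3 were -0.37 ± 0.06 and -0.32 ± 0.11, although a dimmer probe gave 1.08 and -0.26 on the arrays of the G2KO-labelled RNA. Fgfr4 had -0.30 ± 0.00 and -0.62 ± 0.14 at its brightest probe and lay between -0.02 and 0.12 at the other probes kept. Fgfrl1, a receptor without a kinase domain, had 0.54 ± 0.16 and -0.997 ± 0.180. The co-receptors Kl and Klb, which endocrine FGFs such as Fgf21 need, did not pass the filter on dim probes in either comparison.

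Of 21 genes of heparan sulphate and extracellular FGF binding, 20 were kept in the G1KO comparison, where 5 were called lower and 1 higher, and 21 in the other, where 9 were called lower and 1 higher. The medians were 0.09 and -0.40. Flrt3, a membrane protein that binds FGF receptors, was called lower in both, with -3.37 ± 0.22 and -3.60 ± 0.12. Sulf1, which removes sulphate from heparan sulphate outside the cell, was also lower in both, with -1.25 ± 0.01 and -3.32 ± 0.18. The glypican Gpc3 was lower in both as well, with -1.94 ± 0.07 in G1KO and lower by at least 3.24-fold in the G2KO-labelled RNA, where it was not well above background.

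The syndecan Sdc4, with -1.31 ± 0.16, and Sulf2, with -1.15 ± 0.01, were called lower in G1KO, where the glypican Gpc1 was the gene called higher, at 1.20 ± 0.02. Gpc1 was called lower in the G2KO-labelled RNA, at -1.15 ± 0.07. The others called lower there were Flrt2 at -2.42 ± 0.01, the sulphotransferases Hs6st2 at -2.20 ± 0.15 and Hs6st1 at -1.25 ± 0.13, Sdc2 at -1.60 ± 0.09 and Gpc4 at -1.39 ± 0.22. Fgfbp3, a secreted carrier of FGFs, was the gene called higher, at 1.17 ± 0.04 at its brightest probe. Its other probe was also kept and was not called.

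All 14 adaptors and relay proteins examined, among them Frs2 and Grb2, were kept, and none was called in either comparison. Their ratios ranged from -0.81 (Gab1) to 0.76 (Plcg1) in G1KO and from -0.36 (Plcg1) to 0.57 (Hras1) in the G2KO-labelled RNA. Of 15 feedback and target genes kept, 1 was called higher and 1 lower in G1KO, and 2 higher and none lower in the G2KO-labelled RNA, with medians of 0.23 and 0.44.

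Dusp6, a phosphatase that FGF signalling induces, was called lower in G1KO at -1.17 ± 0.07 and stood at 0.94 ± 0.13 in the G2KO-labelled RNA, where it was not called. Egr1, an immediate early gene, was called higher in G1KO at 1.41 ± 0.27. Phlda1 and Dusp4 were called higher in the G2KO-labelled RNA, at 2.84 ± 0.04 and 1.78 ± 0.09. The feedback inhibitors Spry1, Spry2 and Spry4 were not called in either comparison.

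**Figure D3:**
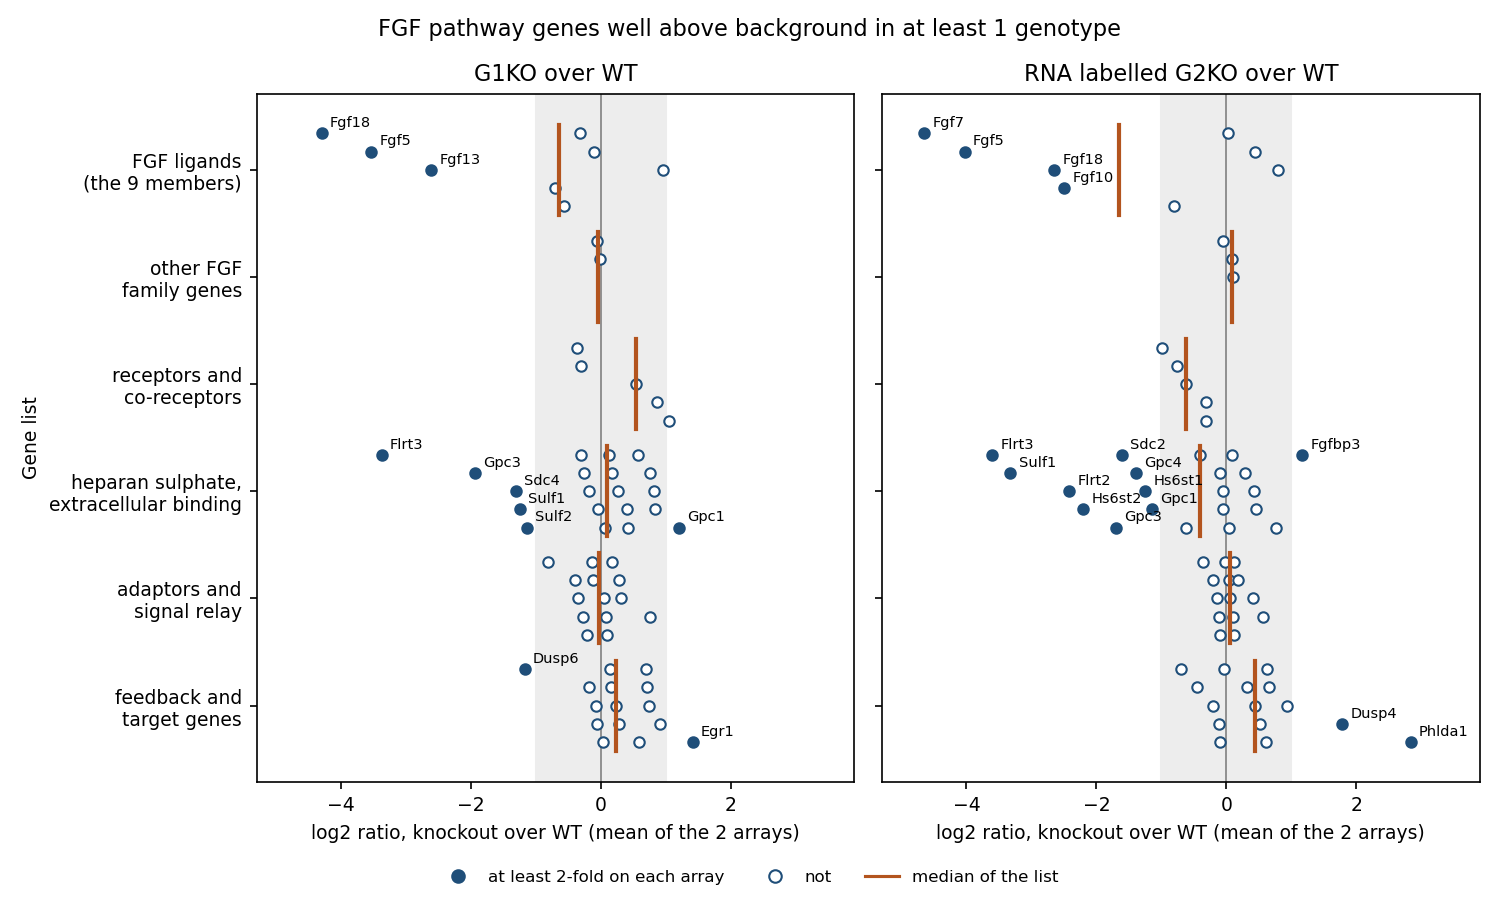
Log2 ratio of knockout over WT (x axis, mean of the 2 arrays) of the FGF pathway genes kept in each comparison, by list (y axis), with filled circles for genes called at 2-fold on each array and a line for the median of each list. Called genes lie among the ligands, the heparan sulphate and binding genes and the feedback genes, and none of the other FGF genes, receptors or adaptors is filled in either panel.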

How the data were processed

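RNA of G1KO and G2KO MEFs and of their WT was compared on 4 Agilent whole-genome mouse arrays, as a dye-swapped pair for each knockout. Linear spot intensity is deposited in the scanner files, which the authors produced with Feature Extraction (10.5.1.1 per the file headers, 9.1 in the submitters' processing notes). They also hold the software's deposited log10 ratio of Cy5 over Cy3. The authors' series table holds log10 ratios that correlated with it at r = 0.999999, or -0.999999 on swapped arrays, so the table is not independent.

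Here mean signals were corrected for local background with normexp (offset 50) and normalised by loess within arrays in limma 3.58.1 and R 4.3.3, without control and outlier spots. Spots of a probe were averaged and ratios turned to knockout over WT, on the log2 scale. Levels of single channels used Aquantile normalisation. Per channel and array, 25366 to 27757 of 43379 gene spots were well above background and 0 were saturated. The median technical SD was 0.0821 and 0.0814. Precision is limited by the number of arrays.

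The members and gene lists were chosen with earlier results of these data known. Named were all members and receptors, genes of other lists called in at least 1 comparison, and the 3 most similar probes. Genes named beside these (Fgf8, Fgf11, Fgf23, the extreme adaptors, the Sprouty genes and some markers) were chosen after their values were seen. A gene with several probes took the brightest one kept. Alternatives were the background correction, offset, normalisation, filter, threshold, single arrays and the deposited log ratios. Some genes of the relay list are not reported here. No other per-sample columns were left unmapped (0).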

Additional observations from a re-analysis of the deposited data

Results flagged for a closer look

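Each of 4 member probes moved in opposite directions in the 2 comparisons on every array, and these differences between comparisons were not tested, since there was 1 replicate per genotype. For Fgf7 the log2 ratio in the G2KO-labelled RNA minus that in G1KO was -5.60 (-4.65 against 0.95). For Fgf13 it was 3.41 at the brightest probe (0.80 against -2.61) and 1.06 at the probe at 55414196 (0.25 against -0.81). The latter probe was not well above background in G1KO. For Fgf9 it was 0.77 (0.45 against -0.33), with 1 genotype not well above background in each comparison.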

How the results depend on the processing

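The 3 probes called in G1KO became 7 with the scanner's log ratio, 7 with the series table and 6 at 1.5-fold on each array. The 4 called in the G2KO-labelled RNA became 7 with the scanner's log ratio, 7 with the series table and 6 at 1.5-fold. With an offset of 10 the counts were 4 in G1KO and 5 in the G2KO-labelled RNA, beside 7.81% and 8.75% of all probes. At 1.5-fold 13.1% of all probes were called in G1KO and 14.6% in the G2KO-labelled RNA. With the scanner's ratio the share of all probes called was 11.2% and 13.4%, and Fgf9 and Fgf13 were then called higher in the G2KO-labelled RNA. Fgf5, Fgf13 and Fgf18 in G1KO, and Fgf5, Fgf7, Fgf10 and Fgf18 in the G2KO-labelled RNA, were called in every setting run, including 4-fold on each array. Fgf7 was called higher in G1KO from the array with knockout RNA in Cy3 alone and at 1.5-fold. Single ratios moved by more than 1 technical SD in 71 of 160 cases, and no called ratio changed sign. These cases include each array alone, which by construction cannot lie more than 1 technical SD from the mean of the pair. They also include the series table, which repeats the scanner's log ratio. The share of cases that moved is therefore no measure of how stable the ratios are. The ratio of Fgf5 in the G2KO-labelled RNA ranged from -6.31 to -3.84 and that of the brightest Fgf13 probe in G1KO from -3.95 to -2.51. In the G2KO-labelled RNA the ratio of Fgf5 was larger in size than that of Fgf7 with an offset of 10 (-5.01 against -4.96). The same held with the scanner's log ratio and with the series table (-6.31 against -5.10 in each). The sign of Fgf2 in the G2KO-labelled RNA varied (-0.05 to 0.13). Between the WT RNAs, Fgf5, Fgf7, Fgf13 and Fgf18 stayed 2-fold or more apart under each normalisation of the levels, while the dimmer Fgf2 probe ranged from -1.08 to -0.98. Counts in the other lists moved in 10 of 44 cases. The cause was not tested. No paired analysis was possible because each comparison had 1 replicate per genotype. Dim probes limit the precision. Where 1 genotype is not well above background, a ratio stands for a bound and not for a measured difference.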
